A study of Homo sapiens with 26 samples.

Results

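The data are ribosome footprints from Huh7 cells, an established human hepatocellular carcinoma line, after 10 min with 1.5 μM or with 0.3 μM PF-06446846. The 6 libraries compared, 3 per dose, were taken by their labelled dose, time and assay from the 26 libraries of the series, of which 22 are ribo-seq and 4 mRNA-seq. The tests of the higher against the lower dose used these 6 libraries, while vehicle libraries entered an alternative fit of the CDS reads over all 18 libraries of the first study and the placing of the stall windows. The 3 vehicle libraries of 10 min (0.5% DMSO) are given beside the values as the background, and the 1.5 μM and 0.3 μM libraries of 60 min are used where stated. All plates had a change to fresh warm medium with the treatment, so that every group shares the medium change, and all were harvested in cycloheximide. The design text calls the replicates biological, and same-numbered libraries are treated as pairs where a replicate block is named. Huh7 is a single tumour line, which limits the groups as a model of hepatocytes.

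In ribosome profiling, the stretches of mRNA that ribosomes protect from nuclease are sequenced, so that a read reports where a ribosome stood. A ribosome that stalls leaves an excess of reads at and 5′ to the stall and fewer reads 3′ to it, while the sum over the coding sequence (CDS) may rise, fall or stay level. PF-06446846 is a small molecule described as acting on the translating human ribosome in a manner that depends on the nascent chain. The comparison of 1.5 μM with 0.3 μM asks how the footprints move between a lower and a higher dose at the shorter treatment time.

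CDS reads per library ranged from 6871492 to 9755922 at 1.5 μM and from 7775919 to 21498137 at 0.3 μM, the deepest being 0.3 μM replicate 2. Replicates of a dose had Spearman correlations of 0.981 to 0.990 across transcripts. Per codon, Pearson's r across codons was 0.810 to 0.832 at 1.5 μM and 0.686 to 0.782 at 0.3 μM, so the 0.3 μM profiles varied more. Of the hepatocyte markers AFP, TTR, APOA1, APOB, SERPINA1, FGB and HNF4A, each had reads in all 6 libraries, with HNF4A between 222 and 255 reads per 1000000 CDS reads, while ALB was not analysed here. Among markers of other cell types, the fibroblast gene DCN lay between 0 and 0.257 on that scale, the endothelial gene PECAM1 between 12.5 and 21.2, and CD68, used as a blood marker, between 36.2 and 54.1. Library contents are relative, so that fewer footprints of a gene and more footprints of all others cannot be told apart.

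The sequences shown end at the single codon with the largest rise from 0.3 to 1.5 μM. They come from 4 genes with lower reads 3′ to the rise (HSD17B11, RPL27, PCBP1 and PCBP2) and from 3 of the 5 genes with the smallest p for a higher window (NDUFB8, ABCD3 and TMED2). Each line holds the coding strand from 5′ to 3′ in GRCh38, and the capitals mark the codon in the ribosomal P site with the largest rise of mean reads per 1000000 CDS reads of a library (RPM).
HSD17B11, codons 7 to 16, exon 1, chr4:87391023-87391052, minus strand: atcctcctgcttctcccgttactgatcGTC
RPL27, codons 6 to 15, exon 2, chr17:42998766-42998795, plus strand: aaacctgggaaggtggtgcttgtcctgGCT
PCBP1, codons 9 to 18, exon 1, chr2:70087768-70087797, plus strand: ggactaaatgtgactctcaccattcggCTT
PCBP2, codons 11 to 20, exon 2, chr12:53454831-53454860, plus strand: aatgtcactctcaccatccggctacttATG
NDUFB8, codons 6 to 15, exon 1, chr10:100529807-100529836, minus strand: gccggggtcttgggagtccagtggctgCAA
ABCD3, codons 14 to 23, exon 1, chr1:94418518-94418547, plus strand: tcgctggctggtgccgcgttcctgctgCTC
TMED2, codons 16 to 25, exon 1, chr12:123584682-123584711, plus strand: gccacggtctcgggctatttcgttagcATC

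These codons were chosen for their rise, so their values are a description without a test. The codon of HSD17B11 is the main stall that the study named, while in RPL27, PCBP1 and PCBP2 the study named another codon. At codon 16 of HSD17B11, the mean was 20.3 ± 1.49 RPM at 1.5 μM, 10.5 ± 2.60 at 0.3 μM and 1.64 in vehicle (SD, n = 3 each). At codon 15 of RPL27 the means were 95.9, 20.1 and 6.81 RPM, in the same order. Codon 15 of NDUFB8 had 15.7, 2.39 and 0.738 RPM, and codon 25 of TMED2 had 24.1, 6.72 and 2.38 RPM. In all of these the 0.3 μM mean lay between vehicle and 1.5 μM. C11orf24 (codon 24) and NIPSNAP1 (codon 29), also among the smallest p for a higher window but not shown above, went the other way. They had 0.0155 and 0.109 RPM at 0.3 μM, from 1 and 3 reads, and 0.171 and 0.262 RPM in vehicle. PCBP1 and PCBP2, a pair of related poly(C)-binding proteins, share 27 of 30 bases over codons 11 to 20, and reads were mostly ambiguous between them. Such reads may have been counted at both, since the alignment reported all equal best sites and kept reads with up to 5.

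Reads 3′ to the point where the dose profiles diverged most were lower at 1.5 μM in 13 genes. For each transcript the cumulative fraction of reads along the CDS was compared between the pooled doses, the codon of the largest excess at 1.5 μM was taken as Dmax, and 322 of 10746 transcripts had a Dmax Z-score of at least 2 among transcripts of similar read count. The 13 that also passed an FDR of 0.1 in edgeR's quasi-likelihood test of the reads after that codon are 0.121% of the transcripts tested, against 64 or 0.596% with the replicate block, which hold all 13. The count with the block was 0 without pair 1, 23 without pair 2 and 88 without pair 3. The 13 were HSD17B11, RPL27, CDO1, PCBP1, USO1, TMA7, SUMF2, PCBP2, MDK, NDUFAB1, BCAP31, CD99 and COX6C. In 10 of them Dmax lay within the first 50 codons, and the positions ranged from codon 20 to codon 309. All 13 were lower in each of the 3 same-numbered pairs, and in each the RPM of the doses did not overlap. Both follow largely from the choice of the 13 on these same libraries and are a description only. Since the boundary was placed on the libraries that were then tested, the same steps were run with the doses exchanged, and this gave 490 transcripts over the Z-score and 1 call, RPL28, without the block, but 96 with it. When the boundary was placed on the 60 min libraries, 13 genes passed, of which 9 were shared. CDO1, TMA7, BCAP31 and COX6C were not among them. With that boundary CDO1 and BCAP31 had an adjusted p of 0.239 and 0.139 in edgeR's test, and TMA7 and COX6C had a Z-score of 0.0946 and 0.215. The count was 47 without 0.3 μM replicate 2 and 9 without 0.3 μM replicate 1. It was 6 without 0.3 μM replicate 3 and 4, 5 and 6 without 1.5 μM replicates 1, 2 and 3.

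HSD17B11, a hydroxysteroid dehydrogenase of lipid droplets and the endoplasmic reticulum (ER), had the largest log2 fold change of the 13. After its Dmax at codon 20 it had 19.8, 24.0 and 22.6 RPM in replicates 1 to 3 at 1.5 μM and 61.2, 68.4 and 61.3 RPM at 0.3 μM. The vehicle libraries had 104, 131 and 90.8 RPM. The doses were well apart, and all 0.3 μM values lay below those of vehicle (log2 fold change of 1.5 over 0.3 μM -1.47, SE 0.12, adjusted p = 0.000655). Before that codon stood 60.1%, 54.0% and 55.4% of its CDS reads at 1.5 μM and 25.4%, 15.9% and 25.2% at 0.3 μM.

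RPL27, a protein of the large ribosomal subunit, had 195, 227 and 245 RPM after codon 29 at 1.5 μM and 573, 481 and 608 RPM at 0.3 μM, against 840, 1066 and 874 RPM in vehicle. The 1.5 μM libraries were lowest throughout (log2 fold change -1.26, SE 0.12, adjusted p = 0.00101). Its reads before codon 29 made up 79.6%, 75.9% and 76.3% of the CDS at 1.5 μM and 32.2%, 52.1% and 43.3% at 0.3 μM. Its sum over the whole CDS differed little, with a log2 fold change of 0.026 (SE 0.12).

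Values of PCBP1 and PCBP2 are not independent, since the study notes that their sequences are alike and that reads mostly could not be assigned to one of them. After codon 33, PCBP1 had 207, 221 and 231 RPM at 1.5 μM and 493, 443 and 496 RPM at 0.3 μM (log2 fold change -1.06, SE 0.099, adjusted p = 0.000993). PCBP2, also after codon 33, had 255, 266 and 317 RPM at 1.5 μM and 517, 576 and 570 RPM at 0.3 μM (log2 fold change -0.94, SE 0.12, adjusted p = 0.00769). In vehicle the mean was 680 RPM for PCBP1 and 755 RPM for PCBP2, above every library of either dose.

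USO1, a tethering factor of ER-to-Golgi transport, was the gene whose Dmax lay farthest from the start, at codon 309. After it there were 33.5, 36.2 and 38.4 RPM at 1.5 μM and 88.7, 76.4 and 67.9 RPM at 0.3 μM (log2 fold change -1.05, SE 0.12, adjusted p = 0.00343). Vehicle had 90.3, 98.8 and 59.7 RPM, so that vehicle and 0.3 μM overlapped and only the higher dose stood apart. The same held for the share of its reads before codon 309, which was 51.1% ± 1.17 at 1.5 μM, 31.7% ± 2.89 at 0.3 μM and 30.8% ± 2.59 in vehicle.

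**Figure D1:**
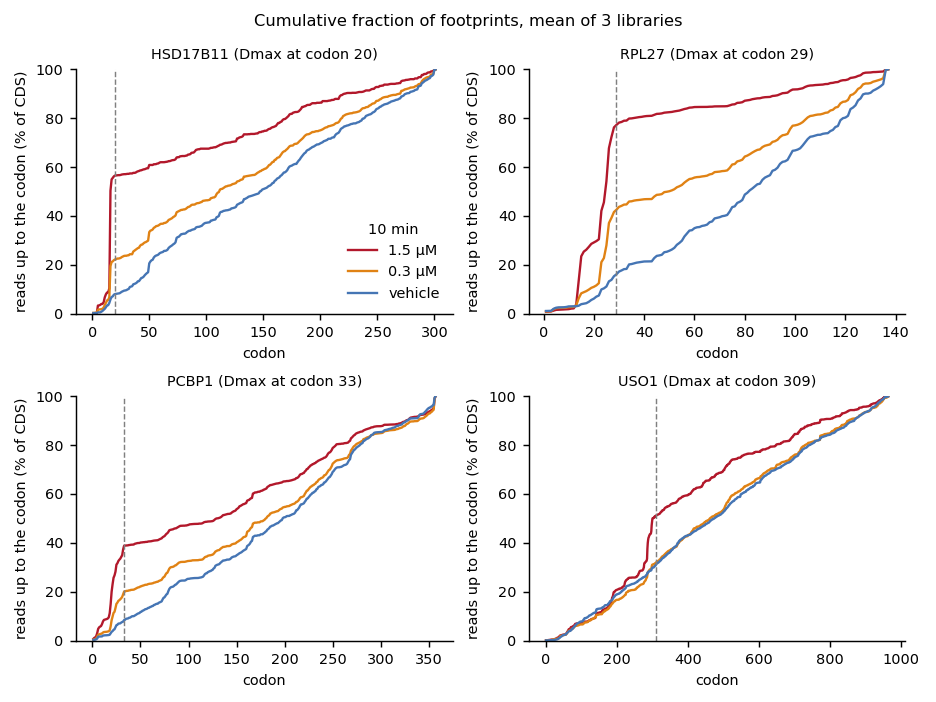
Cumulative percentage of CDS reads (vertical axis) up to each codon (horizontal axis) for HSD17B11, RPL27, PCBP1 and USO1, as the mean of 3 libraries each at 1.5 μM (red), 0.3 μM (orange) and vehicle (blue) of 10 min, with a dashed line at Dmax (codons 20, 29, 33 and 309). At the line the 0.3 μM curve lies between the others in HSD17B11, RPL27 and PCBP1, and close to vehicle in USO1 (31.7% against 30.8%).

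Midkine (MDK), a secreted heparin-binding growth factor, had 44.2, 57.7 and 55.3 RPM after codon 20 at 1.5 μM and 104, 90.6 and 113 RPM at 0.3 μM (log2 fold change -0.91, SE 0.13, adjusted p = 0.0269). NDUFAB1, the mitochondrial acyl carrier protein, had 37.8, 42.4 and 48.3 RPM after codon 86 and 79.6, 90.6 and 79.9 RPM at 0.3 μM (log2 fold change -0.91, SE 0.12, adjusted p = 0.0185). Both were separated by dose in every library.

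The other 6 genes had adjusted p between 0.0668 and 0.0836 in edgeR's test. CDO1, the cysteine dioxygenase, had 5.26 ± 1.35 RPM at 1.5 μM and 12.3 ± 1.42 at 0.3 μM after codon 48 (SD, n = 3). For TMA7 the values were 14.9 ± 2.28 and 32.2 ± 8.41 RPM after codon 29, and its share of reads before that codon overlapped between the doses. SUMF2, a relative of the sulfatase-modifying enzyme SUMF1, had 15.8 ± 1.62 and 31.9 ± 7.19 RPM after codon 87. BCAP31, a chaperone of the ER membrane, had 94.1 ± 10.4 and 180 ± 39.9 RPM after codon 29. The cell-surface glycoprotein CD99 had 45.2 ± 6.35 and 80.6 ± 9.93 RPM after codon 38, and COX6C, a subunit of cytochrome c oxidase, had 57.4 ± 3.08 and 93.4 ± 5.42 RPM after codon 39. Vehicle means were above the 0.3 μM means in all 13 genes, with overlapping libraries in USO1, CDO1, TMA7, CD99 and COX6C. Over the 322 transcripts with a high Z-score the median log2 fold change after Dmax was -0.36, a value that the choice of the boundary favours, against -0.0033 over all transcripts tested.

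**Figure D2:**
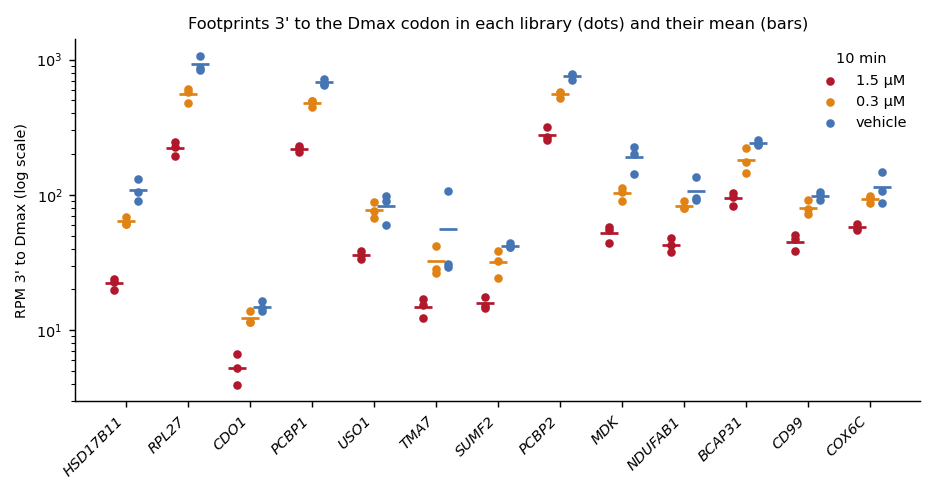
Reads (RPM) 3′ to the Dmax codon (vertical axis, log scale) in each library (dots) and their mean (bars) for the 13 genes, at 1.5 μM (red), 0.3 μM (orange) and vehicle (blue) of 10 min. In each gene the 3 dots of 1.5 μM lie below the 3 of 0.3 μM, from 5.26 against 12.3 RPM on average in CDO1 to 279 against 554 RPM in PCBP2. The genes were chosen on the libraries of these doses.

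Other transcripts passed the FDR in this table without being called. RPL28, a large-subunit ribosomal protein, had more reads from codon 50 at 1.5 μM (484, 438 and 389 RPM) than at 0.3 μM (266, 227 and 300 RPM), with a log2 fold change of 0.78 and an adjusted p = 0.0668 in edgeR's test. FAM168B (0.81), PGAM2 (1.98) and a transcript pair with identical reads, ENSG00000261130 and RP11-1021N1.1 (1.09), were also higher. ABCD3 (-0.64), MST1 (-1.15) and MRPL45 (-0.56) were lower with a Dmax Z-score of 1.76 to 1.95, just under the limit of 2. Of the 13 called, COX6C (2.00) and TMA7 (2.03) were just over it.

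A list of 21 genes in which the study placed compound-induced stalls was followed next. That list was chosen by the study on libraries of this series, so its direction is not independent evidence. A window of 5 codons, called the stall window, was centred on the codon with the largest rise from vehicle to 1.5 μM in the 60 min libraries, so that no 10 min library placed it. That codon need not be the main stall of a gene. It was codon 617 in CDH1, 5 in MDK and 25 in MST1, and codon 729, 16 and 28 in the same genes when the 60 min libraries of the second study were used, while PLA2G15 had codon 26 in both. The study itself placed the main stall of CDH1 at codon 729. In MDK, MST1, PLA2G15, RPL27, PCBP1, USO1 and SUMF2 the main stall that the study named lay 3′ to the window in both placings. In PCBP2 it lay 5′ to both windows, and in SUMF1 it lay 3′ to the window of the first placing. Apart from MST1 and PLA2G15, these genes and CDH1 are all among those counted next as above. A gene counted there therefore need not have risen at its main stall. In 14 of the 21 genes all 3 libraries of 1.5 μM lay above all 3 of 0.3 μM, and in 0 genes below. Over all 7803 transcripts with at least 20 reads in such a window, 14.9% lay wholly above and 1.59% wholly below. CCR1, a chemokine receptor, had only 2 reads in its window and was the gene of the list under 20 reads.

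PODXL2, a sialomucin, had the largest ratio at 3.26, with 3.64, 3.90 and 3.58 RPM at 1.5 μM and 0.989, 1.40 and 1.03 RPM at 0.3 μM. CD99 followed at 2.87 and LTBP3, which binds latent TGF-beta, at 2.79. SUMF1, the enzyme that activates sulfatases, had 4.22, 3.90 and 3.89 RPM against 0.989, 2.47 and 1.29 RPM, a ratio of 2.53. These windows hold few reads (104 at 1.5 μM and 73 at 0.3 μM for SUMF1), and the groups were still apart. RPL27 had the deepest window, with 242, 244 and 247 RPM at 1.5 μM and 122.7, 200 and 176 RPM at 0.3 μM, against 36.5 to 64.6 RPM in vehicle. HSD17B11 had 26.1, 23.0 and 22.4 RPM against 15.7, 9.54 and 14.02 RPM. For each single gene the exact permutation p was 0.1 where the groups did not overlap, which is the smallest that 3 against 3 libraries allow.

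Among the genes whose groups overlapped were BCAP31, DPCD, IFI30, MST1, PLA2G15 and CCR1. In BCAP31, replicate 3 of 1.5 μM (22.4 RPM) stood above the rest, while replicates 1 and 2 (13.0 and 12.6 RPM) lay among the 0.3 μM libraries (16.9, 9.40 and 15.95 RPM). IFI30, a lysosomal thiol reductase, had 21.8, 27.4 and 24.6 RPM against 10.2, 24.8 and 17.6 RPM. PLA2G15, a lysosomal phospholipase, had 2.77, 1.95 and 1.89 RPM against 3.07, 2.00 and 2.06 RPM, with the higher mean at 0.3 μM. For MST1 and PLA2G15 the window did not hold the main stall that the study named. The means of both doses were above those of vehicle in BCAP31, IFI30 and PLA2G15, at 6.41, 12.2 and 1.05 RPM. With a window of 1 codon the count was 9 of 21, beside 16.4% of all transcripts, and with windows placed on the second study 11 of 21, beside 8.03% of all transcripts.

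**Figure D3:**
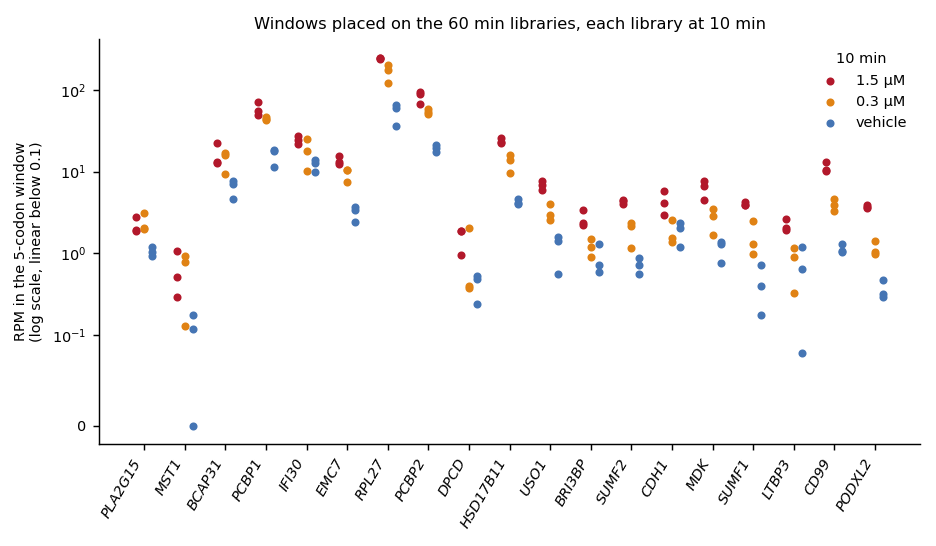
Reads (RPM) in the 5-codon stall window (vertical axis, log scale, linear below 0.1) for 19 of the 20 listed genes with at least 20 reads there, in each 10 min library at 1.5 μM (red), 0.3 μM (orange) and vehicle (blue), ordered by the ratio of the doses. The 1.5 μM dots lie above all 0.3 μM dots in 14 genes, with the largest ratio, 3.26, in PODXL2.

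The share of CDS reads in the first 50 codons of these genes had a median of 35.5% at 1.5 μM and 17.6% at 0.3 μM. It was higher at 1.5 μM in each of the 3 pairs in 18 of the 20 genes with enough reads, against 28.6% of all 8386 transcripts measured. Over their whole CDS, 0 of the 21 passed in the fit without the block, whereas 8 were lower and 0 higher with it (1.06% of all transcripts were lower), and 5 were lower by DESeq2 (0.272% of all). The median log2 fold change of the CDS reads was -0.42 against -0.0031 over all transcripts, and 16 of 21 were lower in each pair, against 22.4% of all. CDH1 (E-cadherin), with 179 ± 24.7 RPM at 1.5 μM and 196 ± 9.66 at 0.3 μM over the CDS, and IFI30, with 135 RPM at both doses, were among those with overlapping groups. The remaining members lay between a log2 fold change of -0.91 for MST1, a plasma protein related to hepatocyte growth factor, and 0.026 for RPL27. EMC7, a subunit of the ER membrane complex, stood at -0.36, DPCD at -0.44, BRI3BP at -0.42, LTBP3 at -0.43, SUMF1 at -0.28, PODXL2 at -0.34, PLA2G15 at -0.35 and CCR1 at -0.65.

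Reads in windows of 10 codons were then tested along every CDS without reference to Dmax or to a list. edgeR's quasi-likelihood test called 0 of 136380 windows (0%) in either direction, with or without the replicate block, and 5342 were higher and 4145 lower at an unadjusted p under 0.05. DESeq2 called 66 higher (0.0484%) and 30 lower (0.022%). Of its 66 higher windows, 71.2% lay in codons 1 to 50, which hold 10.2% of the windows tested, and 31 also passed with the block in DESeq2. The 66 came from 65 genes and the 30 lower windows from 10 genes. Of the 30, 26 were in genes of the stall list, among them RPL27, PCBP1, PCBP2, MDK, HSD17B11 and CDH1, as were 2 of the 66 higher windows. Those genes hold 357 of the 136380 windows tested (0.262%). Without 0.3 μM replicate 2, edgeR called 268 windows higher and 886 lower, of which 142 and 60 lay in codons 1 to 50.

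Across all windows of codons 1 to 50 the median log2 fold change was 0.23, and 66.9% were above 0, against a median of -0.011 and 49.1% over the whole CDS. All 3 libraries of 1.5 μM were above all 3 of 0.3 μM in 14.5% of the early windows, and below in 3.22%. Over all windows these shares were 6.75% and 6.88%. From codon 51 to 100 the median was 0.012, and beyond codon 400 it was -0.062.

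The 5 genes with the smallest p for a higher window, NDUFB8, ABCD3, TMED2, C11orf24 and NIPSNAP1, all had it within codons 11 to 30. None passed edgeR's test (adjusted p = 0.702 for each), while DESeq2 gave adjusted p of 0.000129 to 0.00492. Codons 11 to 20 of NDUFB8, a subunit of respiratory complex I, had 29.8, 23.0 and 19.4 RPM at 1.5 μM and 3.56, 3.02 and 8.10 RPM at 0.3 μM (log2 fold change 2.35, SE 0.38), with 0.928 to 3.53 RPM in vehicle. ABCD3, a peroxisomal fatty acid transporter, had 14.1, 13.4 and 18.2 RPM in codons 21 to 30 against 4.55, 3.44 and 4.63 RPM (log2 fold change 1.90, SE 0.30). In TMED2, a cargo receptor of early secretory vesicles, codons 21 to 30 had 87.8, 89.8 and 84.0 RPM against 30.2, 37.3 and 37.2 RPM (log2 fold change 1.34, SE 0.24). No library of one dose reached the other in any of the 3. The genes were chosen by the smallest p among windows that moved the same way in all pairs, so this separation is a description only. The vehicle libraries lay below those of 0.3 μM in ABCD3 and TMED2 and overlapped them in NDUFB8. C11orf24 had 7.997 ± 0.642 against 2.03 ± 0.433 RPM in codons 21 to 30. NIPSNAP1, a mitochondrial protein, had 21.1, 18.4 and 9.05 RPM there against 2.37, 1.16 and 4.76 RPM, and replicate 3 was the lowest of 1.5 μM.

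Among the windows with the largest increase in DESeq2 were also codons 31 to 40 of NUBP2, a factor of iron-sulfur cluster assembly (6.27 ± 2.22 against 1.23 ± 0.754 RPM), codons 1 to 10 of COX5A, a cytochrome c oxidase subunit (17.6 ± 10.7 against 3.46 ± 2.60), codons 11 to 20 of YWHAQ, a 14-3-3 protein (6.14 ± 1.60 against 1.36 ± 0.668), and codons 31 to 40 of HM13, the signal peptide peptidase (5.95 ± 3.17 against 1.34 ± 0.977). Codons 11 to 20 of the histone genes H2AC19 and H2AC20 had 49.5 ± 21.4 and 49.1 ± 21.03 RPM against 11.9 ± 7.05 and 11.8 ± 6.98, and share nearly all of their reads. H2AC21 had 13.8 ± 7.65 against 2.86 ± 1.70 RPM in the same codons. Replicate 3 was the lowest of the 1.5 μM libraries in all 7 windows.

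Among the lower windows were those of genes of the stall list. Codons 61 to 70 of RPL27 had 2.91, 2.56 and 2.84 RPM at 1.5 μM and 40.6, 7.40 and 19.0 RPM at 0.3 μM (log2 fold change -2.97, SE 0.50). Vehicle had 35.05, 90.03 and 27.33 RPM there. Replicate 1 was thus the highest of 0.3 μM and replicate 2 the highest of vehicle, an order also seen in the windows outside the list named below. In MDK, codons 81 to 90 had 1.02, 1.44 and 1.16 RPM against 4.55, 6.61 and 7.46 RPM (log2 fold change -2.32, SE 0.37). HSD17B11 had 1.33 ± 0.693 against 5.36 ± 1.31 RPM in codons 41 to 50, PCBP1 had 8.97 ± 0.208 against 24.2 ± 3.54 RPM in codons 261 to 270, PCBP2 had 5.92 ± 1.304 against 17.7 ± 3.43 RPM in codons 121 to 130, and CDH1 had 3.26 ± 1.25 against 9.62 ± 2.79 RPM in codons 871 to 883. The other lower windows named were in PSMA7, HSP90AA1, HSPA5 and CCT6A. Codons 231 to 249 of PSMA7, a proteasome subunit, had 5.09, 4.92 and 5.05 RPM at 1.5 μM and 36.3, 9.02 and 9.77 RPM at 0.3 μM, so that replicate 1 of 0.3 μM stood far above the rest. Codons 431 to 440 of the chaperone HSP90AA1, codons 591 to 600 of the ER chaperone HSPA5 and codons 261 to 270 of the chaperonin subunit CCT6A had the same order, with 19.3, 14.8 and 12.7 RPM in that library against 2.37 to 7.59 RPM in the other 0.3 μM libraries. In vehicle these windows were high in replicate 2 (26.1 to 97.2 RPM).

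Averaged over 8211 transcripts of at least 200 codons, the density of reads in the first 50 codons was higher at 1.5 μM. Relative to the mean of each CDS, codons 2 to 50 had a density of 0.812, 0.803 and 0.747 at 1.5 μM and 0.649, 0.696 and 0.701 at 0.3 μM. The doses did not overlap, and replicate 3 had the smallest difference. The mean was 0.787 ± 0.035 against 0.682 ± 0.029 (SD, n = 3), a difference of 15.4%, and vehicle had 0.666 ± 0.037. The two-sided exact permutation p was 0.1, the smallest possible, and 0.25 within pairs, also the smallest possible. At 60 min the means were 0.706 ± 0.040 and 0.689 at 1.5 and 0.3 μM.

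The excess was larger in the first 20 codons than beyond codon 30. It came to 29.3% in codons 1 to 10, 25.4% in codons 11 to 20, 16.2% in codons 21 to 30, 12.1% in codons 31 to 40, 9.52% in codons 41 to 50 and 5.29% in codons 51 to 60, without overlap of the doses in each bin. The value for codons 1 to 10 rests on 0.3 μM replicate 1, without which it was 14.5% (20.2% in codons 11 to 20). Within pairs 1, 2 and 3 it was 77.7%, 18.6% and 7.98% in codons 1 to 10, and 42.8%, 27.3% and 8.30% in codons 11 to 20. From codon 81 to 90 on the doses overlapped in every bin to codon 200, and over codons 51 to 200 the density was 1.04 and 1.03. The start codon had 1.38 ± 0.139 against 0.922 ± 0.284. Near the end of the CDS the direction was the opposite. Codons 10 to 12 before the stop codon, where a ribosome queued behind a terminating one would stand, had 1.04, 1.07 and 1.08 at 1.5 μM and 1.21, 1.13 and 1.23 at 0.3 μM, with an exact permutation p of 0.1. The codon before the stop had 9.01 ± 2.53 against 11.4 ± 1.79, lower in each pair but with overlapping groups (exact permutation p = 0.3).

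**Figure D4:**
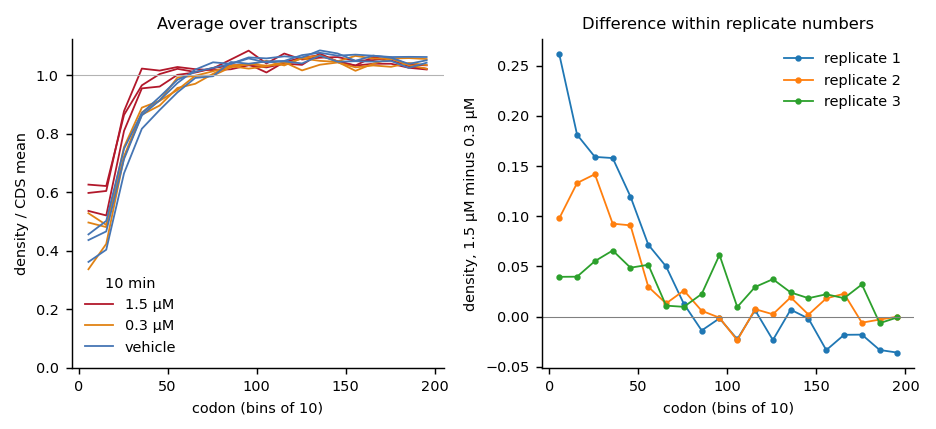
Read density relative to the CDS mean over codons 1 to 200 in bins of 10 (left; 1.5 μM red, 0.3 μM orange, vehicle blue, 1 line per 10 min library) and the difference between the doses within each replicate number (right). The difference is above 0 in all 3 pairs up to codon 80 and lies around 0 beyond, and is 77.7%, 18.6% and 7.98% of the 0.3 μM density in codons 1 to 10 in pairs 1, 2 and 3.

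The center of density, the mean codon position of the reads of a transcript, moved toward the start at 1.5 μM. It was earlier in 69.0% of 10569 transcripts, with a median shift of -4.39 codons, and earlier in all 3 pairs in 27.6%, against 7.0% later in all 3. A mean Z-score beyond 3 was reached by 31 transcripts on the earlier side (0.293%) and 9 on the later side (0.0852%). None of the 31 was among the 13 genes with lower reads after Dmax, and LTBP3 (mean Z -4.52) was the only one in the stall list. The shift was scored in codons among transcripts of similar read count, not of similar length. A short CDS, such as that of TMA7 (65 codons) or RPL27 (137 codons), leaves little room for it, so no conclusion is drawn from the lack of overlap. The genes named here on the earlier side have very long CDSs, as do FAT1 (4589 codons) and SPEN (3665 codons) on the later side. RNF213, a giant ubiquitin ligase of 5257 codons, had its center at codons 2336, 2317 and 2252 at 1.5 μM and at codons 2497, 2467 and 2438 at 0.3 μM (mean Z -6.36). The centrosomal protein ALMS1 had a mean Z of -5.53, the plakin EPPK1 -5.50 and the mechanosensitive channel PIEZO1 -5.41. On the later side were SPEN, a transcriptional corepressor, with a mean Z of 5.31, WDR81 (4.44), the atypical cadherin FAT1 (4.06), DISP2 (3.84) and TPR, a nuclear pore protein (3.53). In FAT1 and TPR the pairs did not all move the same way. Leaving out a replicate number raised the total from 40 to 65, 69 and 86 without replicates 1, 2 and 3.

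Reads summed over the whole CDS gave no calls in the fit without a block. edgeR's quasi-likelihood test called 0 of 11032 transcripts (0%), with a smallest adjusted p of 0.121 and 678 higher and 595 lower at an unadjusted p under 0.05. With the replicate block it called 273 higher (2.47%) and 117 lower (1.06%), and DESeq2 without a block called 66 higher (0.598%) and 30 lower (0.272%). All 96 calls of DESeq2 were among the 390 of the block. The count with the block was 20 without pair 1, of which 18 were among the 390, 232 without pair 2 (144 shared) and 1309 without pair 3 (376 shared).

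On the lower side the smallest p belonged to PCBP1, with 328, 358 and 394 RPM over the CDS at 1.5 μM and 600, 583 and 607 RPM at 0.3 μM (log2 fold change -0.70, adjusted p = 0.121 in edgeR's test, 0.00193 with the block). HSD17B11 had 49.6, 52.2 and 50.7 RPM against 82.1, 81.3 and 82.1 RPM (log2 fold change -0.66, adjusted p = 0.121, 0.00374 with the block). Both were tight within a dose and apart between them. The genes named on either side were chosen among those that moved the same way in all pairs, so such separation is a description only. USO1 (-0.60), BCAP31 (-0.69) and ABCD3 (-0.50) had adjusted p of 0.312, 0.321 and 0.321 in edgeR's test, and 0.016, 0.00374 and 0.0284 with the block.

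On the higher side PGAM2, the muscle form of phosphoglycerate mutase, had 19.2, 14.2 and 6.31 RPM against 3.96, 2.84 and 4.12 RPM (log2 fold change 1.91, adjusted p = 0.288 in edgeR's test, 0.00193 with the block). The spread was wide at 1.5 μM, yet its lowest library was above all of 0.3 μM and vehicle. TRAPPC5, a subunit of a vesicle tethering complex, had 89.0 ± 10.3 against 60.9 ± 3.47 RPM (log2 fold change 0.57). The pair ENSG00000261130 and RP11-1021N1.1, which hold the same reads, had 59.7 ± 12.7 against 30.6 ± 6.96 RPM (1.00). The histone genes H4C9 (0.77) and HIST1H2BN (0.81) made up the other 2 of the 5 smallest p.

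The other genes with the largest changes past the FDR with the block had few reads. On the higher side were FRAT2 (12.9 ± 5.72 against 6.91 ± 1.14 RPM), TOLLIP, an adaptor of innate signalling (12.4 ± 2.81 against 6.87 ± 0.791), CCDC107 (7.81 ± 1.41 against 4.47 ± 1.096), C22orf39 (6.75 ± 2.04 against 3.96 ± 0.350), FBXL14, an F-box protein (6.50 ± 0.967 against 3.90 ± 1.16), RBM38, an RNA-binding protein (19.3 ± 1.37 against 11.9 ± 3.60), and complement factor D, CFD (13.2 ± 3.83 against 8.19 ± 3.37). On the lower side were NBPF11 (2.88 ± 1.09 against 5.99 ± 2.87 RPM), the sorting receptor SORCS2 (3.72 ± 0.576 against 7.79 ± 2.39), MST1 (11.3 ± 0.833 against 21.2 ± 5.65), AP4S1 of an adaptor complex (4.13 ± 1.35 against 7.49 ± 0.683), TBCCD1 (7.57 ± 1.92 against 13.1 ± 3.15), PCYOX1L (5.10 ± 1.23 against 8.35 ± 1.19), the zinc finger protein ZNF155 (5.64 ± 0.986 against 9.19 ± 0.853) and the Wnt receptor FZD4 (8.21 ± 0.285 against 13.4 ± 0.507). Of these, CFD and NBPF11 had overlapping doses.

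Core histones, the proteins that wrap DNA in nucleosomes, were the gene list that stood highest. Without the block 0 of 50 measured genes passed, although 35 were higher and 0 lower at an unadjusted p under 0.05. With the block 31 were higher (2.47% of all transcripts) and 0 lower, and DESeq2 called 19 higher (0.598% of all). The median log2 fold change was 0.39, and 37 of 50 were higher in all 3 pairs, against 18.1% of all transcripts. HIST1H2BN had 888, 1018 and 910 RPM at 1.5 μM and 419, 540 and 669 RPM at 0.3 μM, with vehicle at 383, 320 and 527 RPM (adjusted p = 0.00193 with the block). H4C9 had 782, 694 and 596 RPM against 339, 460 and 437 RPM (adjusted p = 0.0058 with the block). Neither overlapped between the doses. H2BC10, at the low end of the list, had 390 ± 35.5 against 399 ± 41.2 RPM. Histone genes are near-identical copies, so that a read may be counted at more than 1 of them. Their values are not independent, and the counts of genes may hold the same reads repeatedly. Counting from codon 50 left the median at 0.40. At 60 min the median was 0.11, and the difference between the times was not called in any gene.

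**Figure D5:**
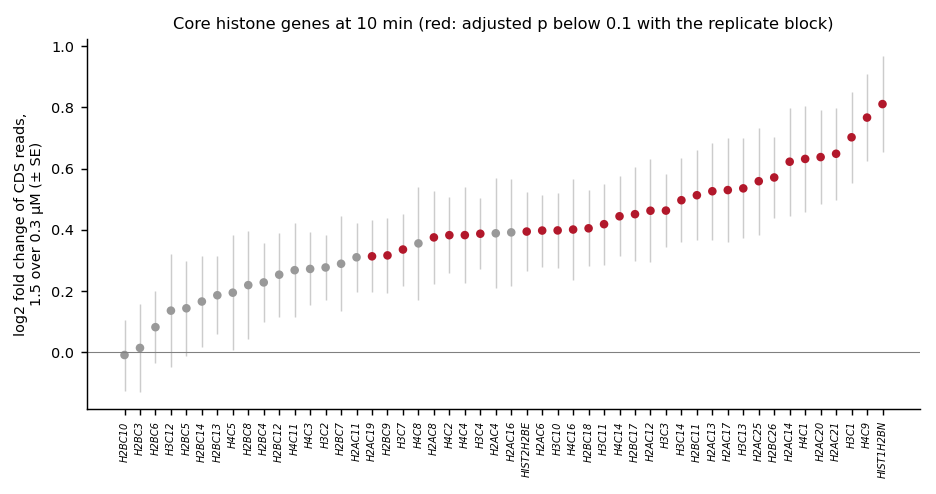
Log2 fold change of CDS reads at 1.5 over 0.3 μM (dots, with the SE from edgeR without the block) for the 50 core histone genes measured, in order of size, with the 31 genes that passed an FDR of 0.1 with the replicate block in red. The values run from -0.009 in H2BC10 to 0.81 in HIST1H2BN, with a median of 0.39.

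Of the lists of the translation machinery, cytosolic ribosomal proteins had a median log2 fold change of 0.09 over 83 genes. With the block 8 were higher and 0 lower (2.47% and 1.06% of all transcripts), by DESeq2 5 and 0 (0.598% and 0.272% of all), and 33.7% were higher in all 3 pairs against 18.1% of all. RPL28 had 790 ± 42.8 RPM at 1.5 μM and 579 ± 37.9 at 0.3 μM, and RPS28 had 1022, 957 and 784 RPM against 537, 625 and 713 RPM, and both passed with the block (adjusted p = 0.036 each). Mitochondrial ribosomal proteins had a median of -0.02 over 76 genes, with 5 higher and 2 lower with the block (2.47% and 1.06% of all transcripts). MRPL55 (84.8 ± 9.28 against 59.6 ± 7.47 RPM) rose and MRPL45 (42.4 ± 2.29 against 60.6 ± 4.80 RPM) fell in that fit. Translation initiation factors had a median of -0.031 over 48 genes, and EIF3J, a subunit linked to the initiation factor eIF3, with 70.9 ± 4.83 against 94.8 ± 7.55 RPM, was the 1 that passed with the block (1.06% of all transcripts were lower). That list was taken by gene name, so it can also hold kinases or inhibitors of initiation factors and genes of other lists. EIF5B, which joins the ribosomal subunits, had 149 ± 13.2 against 191 ± 32.5 RPM.

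Elongation and termination factors had a median of -0.062 over 11 genes, with 0 calls in any of the 3 fits and 0 genes at an unadjusted p under 0.05, and with EEF2 at 4179 ± 198 against 3794 ± 263 RPM and EEF1E1 at 39.1 ± 2.53 against 44.6 ± 2.58 RPM. Ribosome rescue and quality control genes had a median of -0.035 over 23 genes and 0 calls in the 3 fits. Their smallest p belonged to LTN1, the ligase that marks nascent chains on stalled ribosomes (79.1 ± 5.13 against 98.4 ± 11.3 RPM), and to its partner NEMF (30.7 ± 5.12 against 37.9 ± 1.53). Aminoacyl-tRNA synthetases had a median of -0.096 over 21 genes and 0 calls, with 13 lower (61.9%) and 0 higher in all 3 pairs, against 22.4% of all transcripts lower. EPRS1 had 311 ± 11.2 against 380 ± 43.0 RPM and RARS1 had 118 ± 14.3 against 144 ± 12.3 RPM.

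Stress and folding lists gave 0 or 1 call with the block, where 2.47% of all transcripts were higher. In the integrated stress response list (20 genes, median -0.026), CEBPB, a transcription factor, had 47.2 ± 9.17 against 35.6 ± 7.95 RPM and passed with the block (adjusted p = 0.0818) with overlapping doses, while PPP1R15A, a phosphatase subunit acting on eIF2, had 7.86 ± 2.65 against 11.5 ± 3.07 RPM and did not. Among 20 immediate early genes (median 0.088), the AP-1 member JUND had 49.6 ± 11.2 against 34.2 ± 8.004 RPM and passed with the block (adjusted p = 0.0196) with overlapping doses, and IER2 had 44.2 ± 5.86 against 37.5 ± 7.92 RPM. ER chaperones and unfolded protein response genes had a median of -0.055 over 21 genes and 0 calls, with DNAJC3 at 39.7 ± 1.38 against 50.3 ± 4.60 RPM and DNAJB11 at 155 ± 2.82 against 193 ± 18.5 RPM. Heat shock proteins had a median of -0.17 over 11 genes and 0 calls, with 6 lower in all 3 pairs (54.6%, against 22.4% of all transcripts) and HSP90AA1 at 2501 ± 34.8 against 3075 ± 311 RPM and HSPH1 at 137 ± 15.4 against 167 ± 3.18 RPM.

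Secretion, lipid and degradation lists gave 0 calls in edgeR without the block and 2 higher or 0 with it, where 2.47% of all transcripts were higher, and DESeq2 called OST4 alone (0.598% of all were higher). ER targeting and translocation genes were lower in all 3 pairs in 41.0% and proteasome subunits in 41.2%, against 22.4% of all transcripts. ER targeting and translocation had a median of -0.049 over 39 genes and 2 higher with the block, OST4 of the oligosaccharyltransferase (117 ± 2.23 against 90.3 ± 8.99 RPM) and EMC8 of the ER membrane complex (66.1 ± 1.47 against 52.2 ± 2.68 RPM). Cholesterol synthesis and uptake had a median of 0.037 over 25 genes and 2 higher with the block, the sterol reductases TM7SF2 (57.5 ± 16.6 against 42.7 ± 7.90 RPM) and DHCR7 (665 ± 147 against 524 ± 110 RPM), which overlapped between the doses. Proteasome subunits had a median of -0.006 over 34 genes and 0 calls, with PSMC6 at 159 ± 17.8 against 200.8 ± 7.37 RPM and PSMB10 at 7.90 ± 1.80 against 5.09 ± 0.067 RPM. Hepatocyte plasma proteins had a median of 0.019 over 24 genes and 0 calls, with RBP4, the retinol carrier, at 1876 ± 163 against 1595 ± 61.8 RPM and APOB at 5187 ± 517 against 6343 ± 1112 RPM. The 13 mitochondrially encoded subunits had a median of -0.23 and 0 calls, and MT-ATP8 had 27.4 ± 8.11 against 39.5 ± 21.2 RPM and MT-ND4L 22.7 ± 6.10 against 30.2 ± 27.8 RPM. Their median was 0.71 without 0.3 μM replicate 2 and -0.72 at the lowest without another library.

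Whether the dose difference at 10 min differed from that at 60 min was tested as an interaction over the 12 libraries of both doses and times. edgeR's quasi-likelihood test called 0 of 11196 transcripts (0%), with 91 higher and 69 lower at an unadjusted p under 0.05, and DESeq2 also called 0. At 60 min the CDS reads gave 0 calls without the block and 10 higher and 20 lower with it. PCBP1 had a log2 fold change of -0.57 at 60 min, BCAP31 -0.57, MST1 -0.75 and HSD17B11 -0.40, each lower as at 10 min and each past the FDR with the block at 60 min. HIST1H2BN stood at 0.83 at 60 min and passed with the block as well. After the Dmax codons placed at 10 min, HSD17B11 had 27.9, 25.6 and 17.5 RPM at 1.5 μM and 69.1, 63.0 and 45.6 RPM at 0.3 μM in the 60 min libraries, and PCBP1 had 230, 249 and 246 RPM against 446, 489 and 468 RPM. The doses were again apart in both genes. Of the 13 genes, USO1, NDUFAB1, TMA7 and COX6C overlapped at 60 min. USO1 had 44.5, 30.7 and 26.0 RPM against 75.7, 60.9 and 43.9 RPM, and NDUFAB1 had 75.8, 42.3 and 50.2 RPM against 89.1, 65.1 and 57.1 RPM. TMA7 had 24.1, 8.44 and 16.5 RPM against 29.7, 18.5 and 14.03 RPM, and COX6C had 60.6 ± 28.9 against 78.0 ± 23.9 RPM.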

How the data were processed

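Ribosome footprints of Huh7 cells were measured by ribo-seq. Per the paper's methods and the labels, the authors removed adapters with the FASTX toolkit and rRNA reads with Bowtie, aligned the rest with Bowtie 1.1.2 to 1 isoform per gene (Ensembl annotation of GRCh38, most abundant by kallisto 0.42.5), kept reads with at most 5 best sites, placed the P site at a 14 nt offset and deposited the read counts per codon without normalization. Each file holds 12325 transcripts with a median CDS of 388 codons, and 11270 were named from the annotation provided.

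Counts were summed over the CDS, over windows of 10 codons and over the codons after Dmax, and tested with edgeR 4.0.16 (filterByExpr, TMM, glmQLFit, glmQLFTest) in R 4.3.3, on the 6 libraries alone and without a block. P-values were adjusted by Benjamini-Hochberg over all features of a table, with calls at an FDR of 0.1. RPM are reads per 1000000 CDS reads. Dmax and center of density used at least 10 reads and Z-scores in bins of 300 transcripts, with limits of 2 and 3. DESeq2 1.42.0, the block, other boundaries, filters and codons, and leaving out each library were alternatives. Profiles and exact tests ran in Python 3.11.15 (scipy 1.17.1, numpy 2.4.6, pandas 2.3.3), and sequences and coordinates were read from GENCODE transcripts of GRCh38. The edgeR fits of CDS reads, window reads and dose by time, and the scores for Dmax and center of density, were also run on simulated data. Those data held no pair effects, and the other steps were not run on them. The depth of 6871492 to 21498137 CDS reads limits single codons, so that tests used sums, and SDs describe the spread of 3 libraries.

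Same-numbered libraries deviated together (r = 0.421, 0.337 and 0.217 across 8654 transcripts), so the replicate numbers, given in the titles, were taken as pairs. Named genes were those of the stall list, the 10 largest changes in each direction past the FDR or, with none, the 5 smallest p, and the 2 smallest p of each other list. The genes shown for the block and for DESeq2 windows follow the same rule, applied after the data were seen. The members and gene lists were chosen with earlier results of these data known. A few genes are not reported here by name.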

Additional observations from a re-analysis of the deposited data

Results flagged for a closer look

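FBXL14, an F-box protein, moved in opposite directions at the 2 times in its CDS reads. The mean RPM difference of 1.5 minus 0.3 μM was 2.6 at 10 min, above 0 in each of the 3 pairs, and -1.19 at 60 min, below 0 in each pair. FBXL14 had few reads (6.50 against 3.90 RPM at 10 min). It was picked out among genes named for moving the same way in all pairs at 10 min, and the share of such reversals over all transcripts was not measured. The difference between the times was seen in the libraries themselves and was not tested in that form, while the interaction of dose and time gave FBXL14 an adjusted p of 1.00 in edgeR's quasi-likelihood test.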

How the results depend on the processing

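Alternatives that used a block without a pair, DESeq2 with the block, the offset with the block or a boundary from the 60 min libraries, and densities in bins of 10 codons without a library, were chosen after seeing the data. For CDS reads the 0 calls became 96 with DESeq2, 144 with DESeq2 and the replicate block, 390 with the replicate block in edgeR, 6 from codon 50 on, 1 with all 18 libraries, 0 to 2 without a library and 20, 232 and 1309 with the block without pairs 1, 2 and 3. For window reads they became 96 with DESeq2, 69 with DESeq2 and the block, 11 with the offset of the CDS total and block, 0 to 1154 without a library and 0, 720 and 160 with the block without pairs 1, 2 and 3. For reads 3' to Dmax the 13 calls became 43 with DESeq2, 30 with DESeq2 and the block, 64 with the replicate block, 41 with the boundary placed on the 60 min libraries and the block, 8 at a Z-score of 3, 7 at an FDR of 0.05, 5 with the boundary at codon 50, 4 to 47 without a library and 0, 23 and 88 with the block without pairs 1, 2 and 3. The 40 transcripts of the center of density became 157 at a Z-score of 2 and 65 to 86 without a replicate number, and the 14 genes by stall window RPM became 9 with 1 codon.

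When codons from 50 on were counted, the median log2 fold changes of gene lists moved to -0.76 for genes with compound-induced stalls, -0.093 for the integrated stress response, -0.10 for ER targeting and translocation and -0.028 for hepatocyte plasma proteins. Without the last 15 codons mitochondrial ribosomal proteins were at 0.025. Without a library the medians ranged from -0.72 to 0.71 for mitochondrially encoded subunits, -0.085 to 0.0048 for ER targeting, -0.035 to 0.13 for cholesterol synthesis and uptake, -0.093 to 0.089 for hepatocyte plasma proteins, -0.048 to -0.00053 for mitochondrial ribosomal proteins, -0.046 to 0.024 for proteasome subunits and -0.080 to 0.013 for translation elongation and termination factors. With the block without a pair they ranged from -0.030 to 0.0082 for mitochondrial ribosomal proteins, -0.053 to 0.025 for proteasome subunits and -0.077 to 0.022 for elongation and termination factors.

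CDS reads of 3 genes near 0 or with 1 outlying library changed sign. IFI30 ranged from -0.14 to 0.13 without a library, with -0.051, -0.00036 and -0.14 without 1.5 μM replicates 2 and 3 and 0.3 μM replicate 1, and at -0.060 with the replicate block without pair 1. RPL27 ranged from -0.077 to 0.12 without a library, with -0.017 and -0.077 without 1.5 μM replicate 3 and 0.3 μM replicate 1, at -0.068 with the block without pair 1, and at -1.42 from codon 50 on. MT-ND4L ranged from -0.87 to 0.71 without a library, the latter without 0.3 μM replicate 2, and was at 0.61 with the block without pair 2. The sign of the density differences held under all alternatives run, with 0.0887 to 0.125 without a library for codons 2 to 50, -0.159 to -0.112 for codons 10 to 12 before the stop codon and -3.44 to -0.993 for the codon before it. The dose by time test made 0 calls throughout. The causes of these changes were not tested.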
